A study of Mus musculus with 12 samples.

Results

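Kidneys of untreated db/db mice were compared with kidneys of db/m mice of the same age across all expressed genes. The members were the 4 mice labelled as diabetic model (Model) and the 4 labelled as control (Ctrl), 8 of the 12 mice of the series, taken by their sample titles. Model mice were males of a BKS.Cg strain with both Lepr alleles mutated, and they entered the study with a random blood glucose of at least 16.7 mmol/L. Ctrl mice were db/+ males of that strain with a glucose below 11.1 mmol/L. They carry 1 db allele beside the normal one, although the labels also call them wild-type. Both groups received purified water by gavage once a day for 4 weeks and were 13 weeks old. By its labels the tissue was kidney, and the summary of the series names renal cortex. The hour at which the mice were killed is not given. Loss of the leptin receptor brings overeating, obesity and raised circulating hormones together with high glucose, so that glucose was not the only difference between the groups.

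The nephron filters plasma at the glomerulus and recovers most of the filtrate in the proximal tubule, whose S1, S2 and S3 segments carry different transporters and burn mainly fatty acids. The loop of Henle, the distal convoluted tubule and the collecting duct then set the salt and water of the urine. Genes of the proximal tubule also respond strongly to sex hormones in mice. The db/db kidney is known for an early rise in filtration and a thickened glomerular matrix.

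Several transporters and enzymes of the S2 and S3 segments of the proximal tubule, such as Slco1a1, Slc22a7, Cyp7b1 and Acsm3, fell to low levels in Model. Uromodulin of the thick ascending limb was lower, and the sodium chloride cotransporter of the distal convoluted tubule and the kinase Wnk4 were higher. Most nuclear genes listed for the tricarboxylic acid cycle, for branched-chain amino acid breakdown and for cholesterol synthesis were lower, while the messenger RNAs of the mitochondrial genome were higher. Most heat shock genes and 15 of 25 genes of the unfolded protein response were lower. Of all genes tested 18.5% were lower and 19.6% higher, the background for each list named here. In the 10% of nuclear genes with the highest mean FPKM 44.1% were lower. There lie 23 of 30 listed genes of the tricarboxylic acid cycle, 10 of 21 of branched-chain amino acid breakdown and 5 of 25 of cholesterol synthesis. Heat shock has 7 of 13 genes there and the unfolded protein response 9 of 25. Of 20 genes that respond to androgens or differ between the sexes 12 were lower and 3 higher, and 13 of the 20 lie in that 10%. Genes of the glucocorticoid response were higher in 10 of 14 and those of cell division in 14 of 29, against 19.6% of all genes tested. With library size alone they were higher in 5 and 7. Per1, Per2 and Ciart of the clock rose.

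Reads counted on genes came to 33276634, 29632718, 33236670 and 32677732 in Ctrl 1 to 4 and to 29784346, 26356745, 26095074 and 24415658 in Model 1 to 4. Transcripts of the mitochondrial genome took 18.6%, 22.7%, 18.4% and 18.5% of them in Ctrl and 41.2%, 58.9%, 55.3% and 53.4% in Model. The means were 19.5% ± 2.12 and 52.2% ± 7.68 (SD, n = 4 mice each, two-sided exact permutation P = 0.0286, the smallest that 4 against 4 mice can give). Every Model mouse was above every Ctrl mouse, and Model 1 had the lowest share of its group. This left 27100946, 22901810, 27122687 and 26640879 counts off the mitochondrial genome in Ctrl 1 to 4 and 17523835, 10842036, 11671773 and 11389260 in Model 1 to 4. Model 1 and Ctrl 2 correlated least with the other mice of their groups across genes (mean Spearman rho 0.971 and 0.979), followed within Ctrl by Ctrl 4 (0.981).

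Levels are CPM, counts scaled to the size of each library with its TMM factor. A gene was called higher or lower when edgeR's quasi-likelihood test of Model against Ctrl gave a Benjamini-Hochberg adjusted P under 0.05 over the 17431 genes tested. Changes are log2 fold changes, Model minus Ctrl, with the standard error, from 4 mice a group. Of all genes tested 38.0% were called, 19.6% as higher and 18.5% as lower, and the median change was 0.04. In 40.2% of all genes tested the values of the 2 groups did not overlap. These shares are the background for every list of genes that follows. Scaling by library size alone shifted the median of all genes by -0.42, to -0.39, and 21.4% of the called genes were then higher, against 51.5% with TMM. Changes are given relative to the TMM scale. Calls also followed the level of expression. In the 10% of nuclear genes with the highest mean FPKM 10.2% were higher and 44.1% lower, with a median of -0.41, and in the lowest 10% 14.9% were higher and 2.30% lower, with a median of 0.47. Most lists of tubule transport and metabolism lie toward the high end, and the part of expression level in their counts was not tested.

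**Figure D1:**
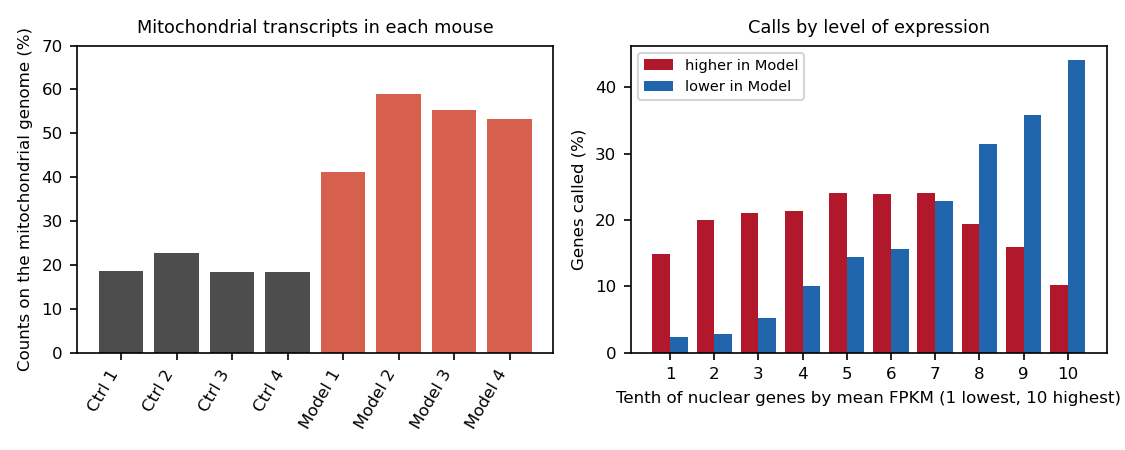
Left, percent of counts on the mitochondrial genome in each mouse, from 18.4% in Ctrl 3 to 58.9% in Model 2. Right, percent of nuclear genes called higher (red) or lower (blue) in Model in each of 10 equal bins of mean FPKM, where genes called lower go from 2.30% in the lowest bin to 44.1% in the highest.

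In the glomerulus, 7 of 19 podocyte genes were higher and 1 was lower (38.0% of all genes tested were called, 19.6% as higher), with a median of 0.51 against 0.04 over all genes. In bulk tissue, more or fewer cells of a type and more or less RNA per cell cannot be told apart. Nphs1, which encodes the slit diaphragm protein nephrin, was at 4.03, 5.80, 6.47 and 5.05 CPM in Ctrl 1 to 4 and at 23.2, 19.6, 18.4 and 16.2 CPM in Model 1 to 4. All Model mice stood above all Ctrl mice. The change was 1.85 ± 0.25 (adjusted P = 5.44e-05). Cdkn1c, a cell cycle inhibitor of mature podocytes, and Nes, their intermediate filament nestin, also rose (log2 1.53 and 1.22). Clic5, a foot process protein tied to the actin cortex, fell by 0.98. Actn4, an actin crosslinker with the highest level of the list, was at -0.06 and not called (called lower with library size alone). The summed level of the podocyte genes was at 599, 605, 677 and 660.0 CPM in Ctrl 1 to 4 and at 806, 632, 656 and 546 CPM in Model 1 to 4, so the sum of 1 group lay within the range of the other. With library size alone 3 podocyte genes were higher and 5 lower. Without Model 1 3 were lower and the median was 0.26, without Ctrl 2 and Model 1 together 3 and 0.20, and 2 were lower without Ctrl 4, with the 8 mice alone or with the replicate number as a block.

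Of 14 genes of the mesangium and of pericytes 8 were higher and 2 lower, with a median of 0.61. Gata3, a transcription factor of the mesangium that also marks the collecting duct, was at 9.82, 11.3, 9.01 and 10.7 CPM in Ctrl 1 to 4 and at 21.6, 23.6, 22.9 and 25.1 CPM in Model 1 to 4. The 2 groups did not overlap, and the change was 1.19 ± 0.15 (adjusted P = 2.85e-05). Ebf1, another transcription factor of stromal cells, rose by 1.24 and Cspg4, the NG2 proteoglycan of pericytes, by 0.96. Gucy1b1, a subunit of the nitric oxide receptor, fell by 0.91. Of 18 endothelial genes 7 were higher. Eng, the receptor endoglin of endothelial cells, was at 119.9, 133, 118 and 116 CPM in Ctrl 1 to 4 and at 246, 264, 275 and 238 CPM in Model 1 to 4. Its lowest Model mouse was far above its highest Ctrl mouse, and the change was 1.07 ± 0.13 (adjusted P = 2.70e-05). Pecam1, a general endothelial marker, was at 0.08 and not called. Among 7 genes of the parietal epithelium 3 were higher, Ncam1 with the largest rise (2.00). The higher counts fell with library size alone to 3 mesangial, 1 endothelial and 1 parietal genes. Without Ctrl 1, Ctrl 2, Ctrl 4, Model 2 or Model 3, each left out alone, 5 mesangial genes were higher, and without Ctrl 3, without Model 1 or without Ctrl 2 and Model 1 together 4 endothelial genes were.

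**Figure D2:**
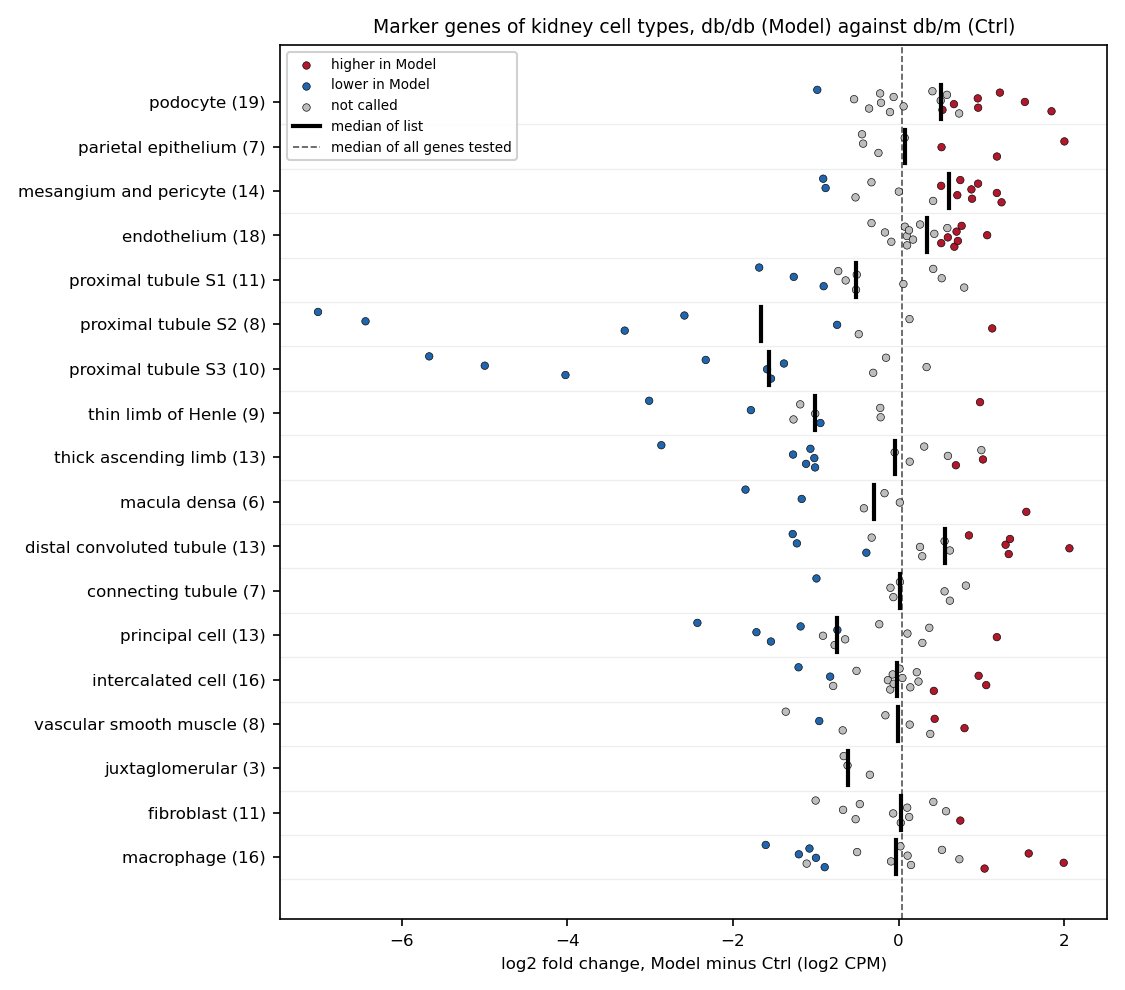
Each point is a marker gene of a kidney cell type, with its log2 fold change on the x axis (Model minus Ctrl, 4 mice each) and the number of genes tested in brackets. Red points were called higher, blue points lower and grey points neither, black bars are list medians, and the broken line is the median of all genes, 0.04. The S2 and S3 lists have medians of -1.66 and -1.56.

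Along the proximal tubule the S1, S2 and S3 lists had medians of -0.51, -1.66 and -1.56. In S1, 3 of 11 genes were lower, and 5 were lower without Model 1, when the median was -0.93 (-0.80 without Ctrl 2 and Model 1 together and -0.31 without Model 4). Slc34a1, the main phosphate transporter of the brush border, was at 1891, 2792, 2063 and 1419 CPM in Ctrl 1 to 4 and at 2074, 2256, 2386 and 1786 CPM in Model 1 to 4. Its groups overlapped, and its change of 0.06 ± 0.29 was not called. Slc5a2, the glucose transporter SGLT2, was at 51.8, 74.6, 59.4 and 19.6 CPM in Ctrl 1 to 4 and at 75.6, 82.8, 75.3 and 40.7 CPM in Model 1 to 4. The spread within Ctrl, with Ctrl 4 low, was wider than the difference between the groups (0.42 ± 0.53, not called). Slc22a12, the urate transporter URAT1, fell by 1.27.

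In S2, 5 of 8 genes were lower and 1 was higher, and with at least 10 counts in every sample the median was -0.70. Slco1a1, an organic anion transporter of the apical membrane, was at 437, 430.0, 329 and 91.6 CPM in Ctrl 1 to 4 and at 2.86, 1.91, 1.51 and 3.38 CPM in Model 1 to 4. Even Ctrl 4, the lowest Ctrl mouse, was well above every Model mouse. The change was -7.01 ± 0.78 (adjusted P = 1.25e-05). Slc22a7, the organic anion transporter OAT2, was at 271, 362, 312 and 171 CPM in Ctrl 1 to 4 and at 3.03, 1.57, 4.80 and 3.21 CPM in Model 1 to 4. Groups were again fully separate, with a change of -6.44 ± 0.40 (adjusted P = 5.55e-08). Cyp4b1, a cytochrome P450, and Cyp2e1, the ethanol-inducible cytochrome P450, fell as well (log2 -3.31 and -2.59). Slc22a8, the basolateral transporter OAT3, was called higher (1.13), but Model 4 lay among the Ctrl mice, and the call was lost with library size alone, without Ctrl 3, without Ctrl 4, without Model 1 and without Ctrl 2 and Model 1 together (0.83, adjusted P = 0.0741 without Model 1). Fxyd2, a subunit of the sodium pump and the most abundant gene of the list, was at 0.13 and not called.

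In S3, 7 of 10 genes were lower. Cyp7b1, an oxysterol hydroxylase, was at 369, 307, 364 and 388 CPM in Ctrl 1 to 4 and at 6.86, 6.76, 5.62 and 8.59 CPM in Model 1 to 4. Levels were even within each group and far apart between them. The change was -5.67 ± 0.22 (adjusted P = 3.95e-10). Acsm3, a medium-chain acyl-CoA synthetase, was at 99.0, 54.0, 68.8 and 28.5 CPM in Ctrl 1 to 4 and at 1.77, 1.33, 2.56 and 1.92 CPM in Model 1 to 4. Ctrl mice varied, with Ctrl 4 the lowest and still above all Model mice, and the change was -5.00 ± 0.37 (adjusted P = 3.81e-07). Slc22a19, an organic anion transporter, and Slc7a13, the aspartate and glutamate transporter AGT1, fell by 4.02 and 2.33. The summed level of the S3 genes was at 3525, 3211, 3266 and 2677 CPM in Ctrl 1 to 4 and at 1139, 1085, 1296 and 1459.6 CPM in Model 1 to 4. No Model mouse reached the lowest Ctrl mouse.

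Uptake of filtered protein by megalin and cubilin is a task of the early proximal tubule. Of 17 genes of this machinery 10 were lower and 1 was higher, with a median of -0.63. With library size alone 16 were lower and the call of the higher gene was lost. Lrp2, which encodes megalin, was at 753, 898, 851 and 845 CPM in Ctrl 1 to 4 and at 302, 244, 283 and 213 CPM in Model 1 to 4. Both groups were tight, and no Model mouse came near the lowest Ctrl mouse. Its change was -1.68 ± 0.29 (adjusted P = 0.0004). Cubn, which encodes cubilin, and Lrpap1, the chaperone of megalin, fell by 0.90 and 1.48. Rab5a, a GTPase of early endosomes, fell by 1.38, and Rab7, a GTPase of late endosomes, was at -0.18 and not called (called lower with library size alone). Among 26 transporters of organic anions and cations 15 were lower and 4 higher. The higher ones included Abcb1b, an efflux pump (1.42), and Slc22a29, an organic anion transporter (3.00), and 2 were higher with library size alone. Slc22a6, the basolateral transporter OAT1, was at -0.73 and not called, although the groups did not overlap and it was called lower with DESeq2, with library size alone, with no filter, with the 8 mice alone, without Ctrl 4 or without Model 1.

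In the thick ascending limb 6 of 13 genes were lower and 2 higher (1 with library size alone or without Ctrl 3). Umod, which encodes the urinary protein uromodulin, was at 943, 526, 1076 and 1138 CPM in Ctrl 1 to 4 and at 199.9, 80.9, 91.0 and 134 CPM in Model 1 to 4. Ctrl 2 was the lowest Ctrl mouse and still above all Model mice. The change was -2.86 ± 0.38 (adjusted P = 5.43e-05). Slc12a1, the sodium, potassium and chloride cotransporter that defines this segment, was at 817, 435, 974 and 908 CPM in Ctrl 1 to 4 and at 821, 768, 572 and 873 CPM in Model 1 to 4. The groups overlapped (-0.05 ± 0.27, not called). Cldn16, a tight junction protein for magnesium and calcium, fell by 1.27. Egf, made in the distal nephron, fell by 1.01.

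In the distal convoluted tubule 5 of 13 genes were higher and 3 lower, with a median of 0.56 (0.23 without Model 1). Slc12a3, the thiazide-sensitive sodium chloride cotransporter, was at 135, 192, 111 and 117 CPM in Ctrl 1 to 4 and at 259, 385, 355 and 396 CPM in Model 1 to 4. Model 1 was the lowest Model mouse and lay above every Ctrl mouse. The change was 1.33 ± 0.22 (adjusted P = 0.000256). Wnk4, a kinase upstream of the cotransporter, and Klhl3, a ubiquitin ligase adaptor that acts on WNK kinases, rose by 1.35 and 1.29. Trpm6, a magnesium channel, was at 6.63, 10.2, 2.96 and 6.33 CPM in Ctrl 1 to 4 and at 23.7, 23.6, 31.1 and 31.3 CPM in Model 1 to 4, with no overlap and a change of 2.06 ± 0.37 (adjusted P = 0.000435). Kcnj10 and Kcnj16, which together form a basolateral potassium channel, fell by 1.23 and 1.28. Pvalb, the calcium buffer of the early part of the segment, was at 0.26 and not called. Over 22 genes of salt transport from loop to collecting duct 7 were higher and 5 lower, and with library size alone 4 and 8. Atp1b1, the beta subunit of the sodium pump, was among those that fell (-2.18). Without Ctrl 3, 4 salt transport genes were higher.

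Principal cells of the collecting duct had 5 of 13 genes lower and 1 higher, and water and urea handling had 9 of 14 lower and 1 higher, a call lost with library size alone, with medians of -0.74 (-0.48 without Ctrl 4) and -1.01. The higher principal cell gene was Gata3, which is also counted among the mesangial genes above. Aqp4, a basolateral water channel, was at 130.00, 87.7, 148 and 243 CPM in Ctrl 1 to 4 and at 35.8, 29.7, 15.7 and 31.5 CPM in Model 1 to 4. The groups did not overlap, and the change was -2.43 ± 0.53 (adjusted P = 0.00198). Aqp3, the other basolateral water channel, and Hsd11b2, which inactivates corticosterone in these cells, fell by 1.72 and 1.54. Aqp2, the vasopressin-regulated water channel, was at 692, 364, 412 and 1133 CPM in Ctrl 1 to 4 and at 366, 219, 269 and 291 CPM in Model 1 to 4. Model 1 lay above Ctrl 2, and Ctrl 4 was far above the rest. Its change of -1.18 ± 0.42 (adjusted P = 0.0354) was not called with DESeq2, with upper-quartile scaling, or without Ctrl 1, Ctrl 4, Model 2, Model 3 or Model 4, and without Ctrl 4 it was -0.82 (adjusted P = 0.139). Akr1b3, the aldose reductase that makes sorbitol in the medulla, was at 388, 91.5, 89.0 and 347 CPM in Ctrl 1 to 4 and at 34.7, 24.01, 26.1 and 28.3 CPM in Model 1 to 4. Ctrl 1 and Ctrl 4 were high and Ctrl 2 and Ctrl 3 lower, all above Model (-3.01 ± 0.83, adjusted P = 0.00942).

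The amount of medulla in a sample could not be read from the labels, and markers of deeper segments differed among the Ctrl mice. The summed level of 9 thin limb genes, most of it Aqp1, was at 1290.2, 726, 1045 and 1772 CPM in Ctrl 1 to 4 and at 578, 639.6, 618 and 843 CPM in Model 1 to 4. For 14 principal cell genes, with Aqp2 as the most abundant, the sum was at 1337, 972, 1036 and 2216 CPM in Ctrl 1 to 4 and at 912, 573, 639.8 and 644 CPM in Model 1 to 4. Ctrl 1 and Ctrl 4 were high and Ctrl 2 was low in the first of these sums. The sum of 8 genes of the urothelium and pelvis, with Psca as the most abundant, was at 60.6, 9.67, 33.7 and 61.2 CPM in Ctrl 1 to 4 and at 23.05, 11.1, 14.8 and 21.7 CPM in Model 1 to 4, and the groups overlapped. Each of these genes had counts in at least 1 mouse. The part of the depth of sampling in the lower levels of collecting duct genes was not tested. Without Ctrl 4, 1 thin limb and 3 principal cell genes were lower, against 3 and 5 with it, and without Ctrl 2 the numbers were 6 and 5. Principal cell genes also numbered 3 without Model 2, Model 3 or Model 4 or with upper-quartile scaling and 8 with library size alone, and thin limb genes 6 with library size alone or no filter and 7 without Ctrl 2 and Model 1 together. Intercalated cells, which handle acid and base, had 3 of 16 genes higher and 2 lower, with a median of -0.02. Both calls of lower genes were lost without Ctrl 1, Ctrl 4, Model 2 or Model 4, 1 was lower without Ctrl 2 or Model 3, with upper-quartile scaling, with at least 10 counts in every sample or with the replicate number as a block, and 4 were lower with library size alone, no filter, the 8 mice alone or without Ctrl 2 and Model 1 together. Atp6v1c2, a subunit of their proton pump, and Insrr, a sensor of alkaline pH, rose by 1.06 and 0.97. The 2 genes called lower were Foxi1 and Spink8. Car2, the cytosolic carbonic anhydrase, was at -0.06 and not called.

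**Figure D3:**
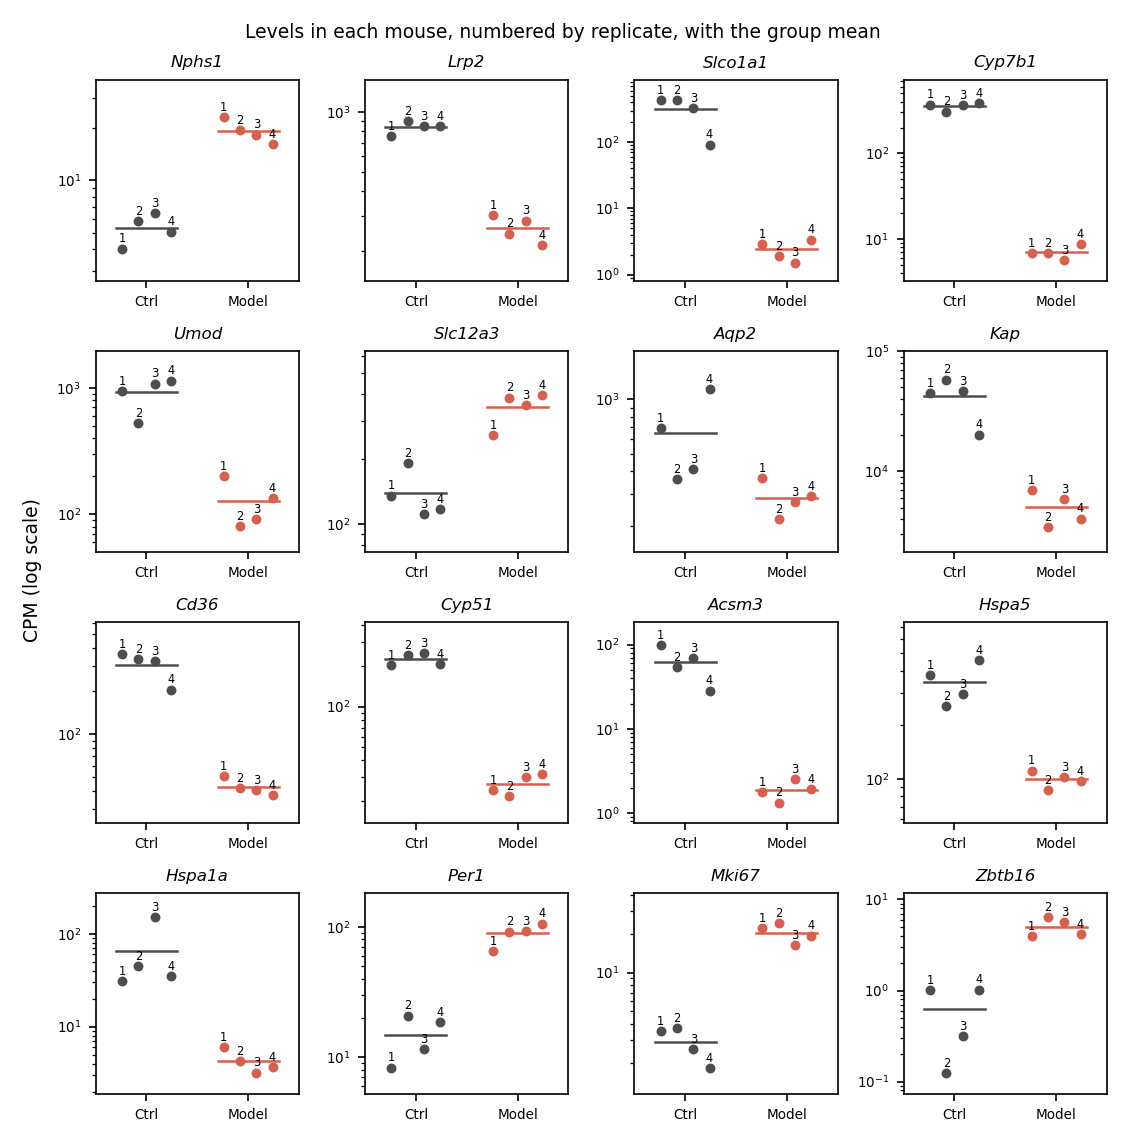
CPM of 16 genes in each mouse on a log scale, with Ctrl in grey, Model in red, the replicate number beside each point and the group mean as a line. The groups separate fully in 15 of the 16 panels, and in Aqp2 Model 1 lies above Ctrl 2. The 16 genes were picked for display. Of all genes tested 40.2% showed no overlap between the groups.

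Of 30 nuclear genes of pyruvate entry and the tricarboxylic acid cycle 22 were lower and 2 higher, with a median of -0.86. Of the higher genes both calls were lost with library size alone, and 1 was higher without Ctrl 1 or Ctrl 4. Suclg1, a subunit of succinyl-CoA synthetase, was at 265, 289, 285 and 284 CPM in Ctrl 1 to 4 and at 116, 69.9, 68.5 and 61.1 CPM in Model 1 to 4. Ctrl mice lay close together, and Model 1 was the highest of the Model mice. The change was -1.83 ± 0.21 (adjusted P = 1.67e-05). Pdha1, a subunit of pyruvate dehydrogenase, Mdh1, the cytosolic malate dehydrogenase, and Sdha, a subunit of succinate dehydrogenase, fell by 1.23, 1.33 and 1.32. Kinases that switch pyruvate dehydrogenase off went in different directions, with Pdk3 at -1.60 and Pdk1 at 0.92 (not called with library size alone).

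Respiratory chain genes come from both genomes. All 13 messenger RNAs of the mitochondrial genome were higher, with a median of 1.91, and their summed level was at 143031, 204052, 143918 and 133054 CPM in Ctrl 1 to 4 and at 388147, 722968, 642319 and 540795 CPM in Model 1 to 4. Of 39 nuclear genes of complexes II to V 18 were lower, with a median of -0.46 (-0.75 without Model 1). All 39 lie in the 10% of nuclear genes with the highest mean FPKM, of which 44.1% were lower with a median of -0.41, so their count is close to that of other genes at this level. Cox5a, a subunit of cytochrome c oxidase, was at 76.3, 70.6, 82.4 and 90.1 CPM in Ctrl 1 to 4 and at 32.2, 20.6, 16.8 and 18.2 CPM in Model 1 to 4, a change of -1.86 ± 0.21 (adjusted P = 1.62e-05) with no overlap. Uqcrc2 of complex III and Atp5pb of the ATP synthase fell by 1.47 and 1.44. In complex I, 9 of 36 nuclear genes were lower and 4 higher, with a median of -0.25. Ndufb6 fell by 1.27 and Ndufv1 by 1.04, both structural parts of the complex. This count depended on the mice, with 15 lower without Model 1 and 5 lower without Ctrl 2, Model 2, Model 3 or Model 4, and 19 with library size alone. Higher complex I genes numbered 2 with no filter or without Ctrl 1, Ctrl 3, Ctrl 4, Model 1 or Model 2, and their calls were lost with library size alone. Of complex I genes 32 lie in the same 10%.

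In glycolysis 7 of 19 genes were lower, with a median of -0.28 and 11 lower with library size alone. Of the 19 genes 10 lie in the 10% with the highest mean FPKM, where 44.1% of all nuclear genes were lower. Tpi1 and Pgk1, enzymes of the middle of the pathway, fell by 1.54 and 1.53. Hk1, a hexokinase, was at -0.12 and not called. Among genes of glucose reabsorption and release, Pck1, the rate-limiting enzyme of renal glucose production, was at 1366, 2271, 1560.1 and 1196 CPM in Ctrl 1 to 4 and at 3961, 2922, 3268 and 1961 CPM in Model 1 to 4. Model 4 lay below Ctrl 2, and the rise of 0.92 ± 0.28 (adjusted P = 0.0174) was not called with library size alone or without Ctrl 1, Ctrl 3, Ctrl 4 or Model 1 (0.70, adjusted P = 0.0584 without Model 1). Fbp1, a later enzyme of that pathway, was at 484, 546, 585 and 545 CPM in Ctrl 1 to 4 and at 259, 210.5, 217 and 182 CPM in Model 1 to 4, fully separated, with a change of -1.31 ± 0.22 (adjusted P = 0.000325). Slc5a1, the glucose transporter SGLT1 of the late proximal tubule, fell by 1.13.

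**Figure D4:**
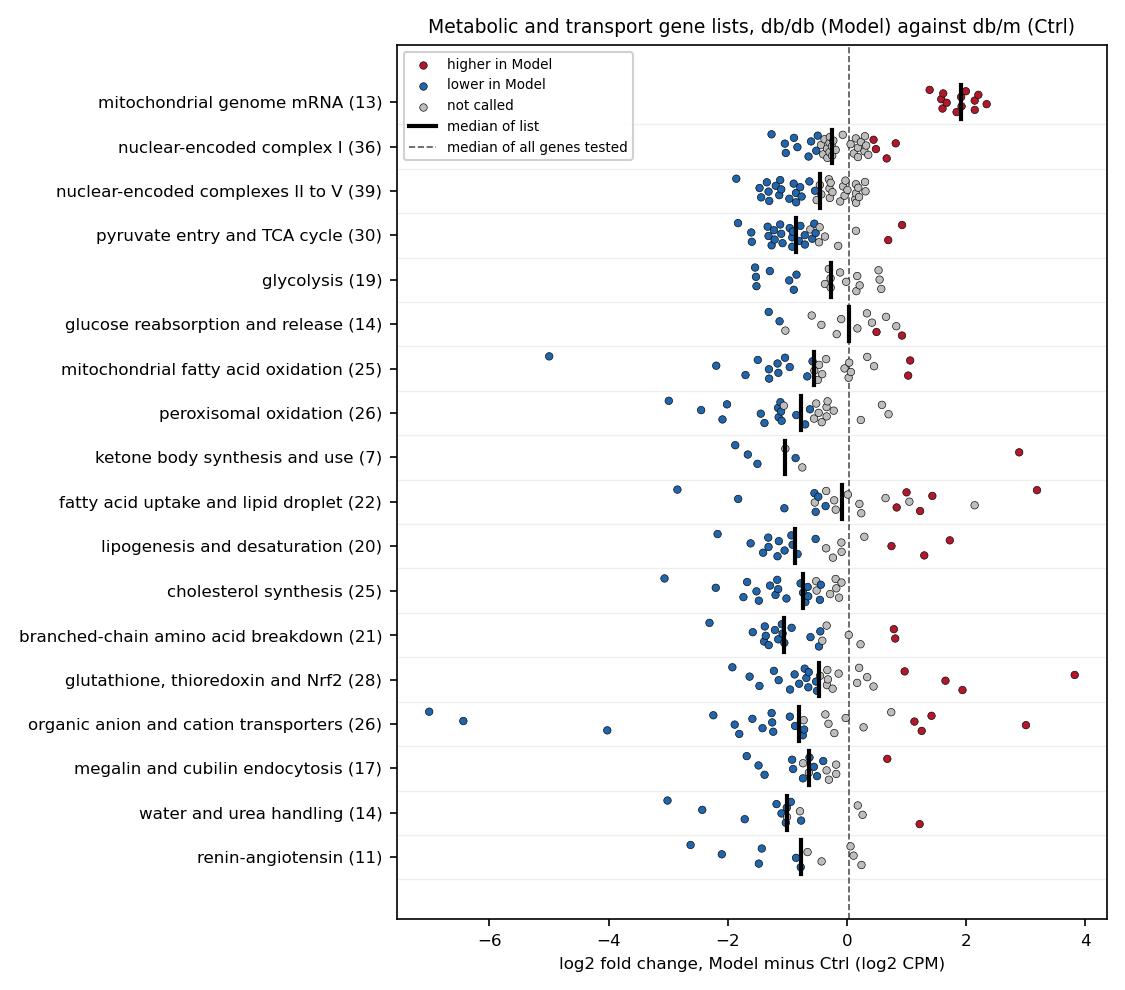
Each point is a gene of a metabolic or transport list, with its log2 fold change on the x axis (Model minus Ctrl, 4 mice each) and the number of genes tested in brackets. Red points were called higher, blue points lower and grey points neither, and black bars are list medians, which run from -1.05 for breakdown of branched-chain amino acids to 1.91 for mitochondrial messenger RNA.

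Fatty acids are oxidised in mitochondria and in peroxisomes. In the first list 12 of 25 genes were lower and 2 higher (1 with library size alone), and in the other 14 of 26 were lower, with medians of -0.55 and -0.78. Of these genes 13 and 15 lie in the 10% with the highest mean FPKM, where 44.1% of all nuclear genes were lower. Acadm, the medium-chain acyl-CoA dehydrogenase, was at 722, 697, 842 and 759.8 CPM in Ctrl 1 to 4 and at 267, 214, 229.9 and 218 CPM in Model 1 to 4. All Ctrl mice were above all Model mice by a wide margin, and the change was -1.70 ± 0.16 (adjusted P = 2.85e-06). Acsm2, a medium-chain acyl-CoA synthetase with the highest level of the mitochondrial list, fell by 2.19, and Etfb, which hands electrons on to the respiratory chain, rose by 1.03. Cpt1a, which admits long-chain fatty acids to mitochondria, was at -0.35 and not called (called lower with library size alone or without Model 1). Ehhadh, the peroxisomal bifunctional enzyme, was at 446, 346, 422 and 416 CPM in Ctrl 1 to 4 and at 78.5, 68.8, 77.5 and 74.0 CPM in Model 1 to 4. Its 4 Model mice lay within a narrow band below all Ctrl mice (-2.45 ± 0.34, adjusted P = 6.50e-05). Cat, which encodes catalase, and Cyp4a12a, a fatty acid omega-hydroxylase with a near-identical paralog that makes its counts uncertain, fell by 1.15 and 2.99.

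Of 7 genes of ketone bodies 4 were lower and 1 was higher, a call lost without Ctrl 2 and Model 1 together. Oxct1, which activates ketone bodies for use, was at 1155, 1237, 1315 and 1112 CPM in Ctrl 1 to 4 and at 452, 352, 440.4 and 456 CPM in Model 1 to 4. The groups did not overlap (-1.50 ± 0.16, adjusted P = 1.08e-05). Acat1 and Bdh1, which also act in ketone use, fell by 1.88 and 1.66.

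Genes of fatty acid uptake and lipid droplets went both ways, 5 higher and 7 lower of 22. Cd36, a fatty acid receptor, was at 361, 336, 325 and 204 CPM in Ctrl 1 to 4 and at 50.9, 41.8, 40.4 and 37.4 CPM in Model 1 to 4. No Model mouse approached the Ctrl mice, and the change was -2.85 ± 0.26 (adjusted P = 2.38e-06). Lpl, the lipase that frees fatty acids from lipoproteins, and Plin2, a coat protein of lipid droplets, fell by 1.83 and 1.05. Plin4, another coat protein, was at 1.27, 1.53, 1.74 and 1.43 CPM in Ctrl 1 to 4 and at 7.89, 15.0, 16.4 and 17.4 CPM in Model 1 to 4. Model 1 was the lowest of its group and still above all Ctrl mice (3.19 ± 0.27, adjusted P = 1.35e-06). Angptl4, an inhibitor of Lpl, and Slc27a1, a fatty acid transporter, rose by 1.43 and 1.23. Lower genes of the list numbered 3 with upper-quartile scaling and without Model 2, and 4 without Ctrl 3, Model 3 or Model 4, and higher ones 3 with library size alone.

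Cholesterol synthesis had 18 of 25 genes lower, with a median of -0.74. Cyp51, the lanosterol demethylase, was at 202, 241, 249 and 207 CPM in Ctrl 1 to 4 and at 23.98, 21.8, 29.9 and 31.6 CPM in Model 1 to 4. Levels were even within each group, and the change was -3.06 ± 0.18 (adjusted P = 3.53e-08). Idi1, an early enzyme of the pathway, also fell. In lipogenesis and desaturation 12 of 20 genes were lower and 3 higher. Me1, the malic enzyme that supplies NADPH, was at 432, 408, 481 and 274 CPM in Ctrl 1 to 4 and at 91.4, 78.2, 96.2 and 88.1 CPM in Model 1 to 4, with no overlap and a change of -2.17 ± 0.19 (adjusted P = 2.24e-06). Fads2, a desaturase, fell by 1.62, whereas Elovl6, a fatty acid elongase, and Thrsp, a factor linked to lipid synthesis, rose by 1.30 and 1.72. Srebf1, a transcription factor of lipid synthesis, was at -0.35 and not called (called lower with library size alone or with the 8 mice alone).

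Breakdown of leucine, isoleucine and valine had 15 of 21 genes lower and 2 higher, with a median of -1.05, and with library size alone the calls of the higher genes were lost. Bcat1, a cytosolic transaminase of these amino acids, was at 42.0, 23.97, 31.7 and 29.5 CPM in Ctrl 1 to 4 and at 5.73, 5.05, 6.30 and 8.42 CPM in Model 1 to 4. All Model mice were below all Ctrl mice (-2.31 ± 0.36, adjusted P = 0.000157). Bckdha, a subunit of the committing dehydrogenase, Mccc2, of leucine breakdown, and Aldh6a1, of valine breakdown, fell by 1.58, 1.39 and 1.08. The 2 genes called higher were Bcat2 and Ppm1k. Over 28 genes of other amino acids and ammonia 9 were lower and 4 higher, with 16 lower with library size alone and 5 without Model 2. Of the 28 genes 17 lie in the 10% with the highest mean FPKM, where 44.1% of all nuclear genes were lower. Acy3, an acylase of the proximal tubule, was at 2167, 2604, 2117 and 1196 CPM in Ctrl 1 to 4 and at 342, 296, 269 and 235 CPM in Model 1 to 4, fully separated (-2.82 ± 0.24, adjusted P = 1.66e-06). Kynu, of tryptophan breakdown, Prodh2, of hydroxyproline breakdown, and Hpd, of tyrosine breakdown, rose by 2.41, 1.83 and 1.57.

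Glutathione, thioredoxin and Nrf2 target genes were lower in 14 and higher in 4 of 28. Of these genes 19 lie in the 10% with the highest mean FPKM, where 44.1% of all nuclear genes were lower. Gclm, the modifier subunit of the enzyme that limits glutathione synthesis, was at 416, 427, 427 and 383 CPM in Ctrl 1 to 4 and at 133, 90.5, 100.02 and 112 CPM in Model 1 to 4. Within each group the values were close, and the change was -1.92 ± 0.15 (adjusted P = 8.44e-07). Its catalytic partner Gclc and the peroxidase Prdx1 fell by 1.63 and 1.47. Gsta2, a glutathione transferase with close paralogs so that its counts are uncertain, was at 0.985, 2.59, 4.41 and 2.34 CPM in Ctrl 1 to 4 and at 60.04, 27.6, 29.2 and 32.2 CPM in Model 1 to 4. Model 1 was the highest, and all Model mice exceeded all Ctrl mice (3.82 ± 0.47, adjusted P = 2.60e-05). Slc7a11, the cystine transporter, rose by 1.65. Gpx3, the plasma glutathione peroxidase made by the proximal tubule and the largest rise in FPKM outside the mitochondrial genome, was at 12759, 20700.5, 12498 and 16887 CPM in Ctrl 1 to 4 and at 35198, 30693, 32160.2 and 24784 CPM in Model 1 to 4. The groups did not overlap, but the change of 0.97 ± 0.33 (adjusted P = 0.0309) was not called with library size alone or without Ctrl 1, Ctrl 3, Ctrl 4, Model 1, Model 2 or Model 3 (0.82, adjusted P = 0.0982 without Ctrl 3). Counts of the list also moved with single mice, with 7 lower without Model 2 and 9 without Model 4, and 2 higher without Ctrl 1, Ctrl 3, Ctrl 4, Model 1 or Model 3 or with library size alone.

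Genes known to respond to androgens or to differ between the sexes in mouse kidney were lower in 12 and higher in 3 of 20, with a median of -1.41 (-0.87 with at least 10 counts in every sample), and 5 were higher without Ctrl 4. Of these genes 12 are also counted in other lists, 8 of them among the segment or transporter genes, such as Slco1a1, Cyp7b1 and Slc22a29. Kap, the kidney androgen-regulated protein and the largest fall in FPKM of all genes, was at 44682, 58123, 46802 and 20298 CPM in Ctrl 1 to 4 and at 6949, 3464, 5914 and 4048 CPM in Model 1 to 4. Ctrl 4 was the lowest Ctrl mouse and above every Model mouse. The change was -3.06 ± 0.41 (adjusted P = 5.09e-05). Akr1c18, a steroid-reducing enzyme with close paralogs, was at 27.6, 33.9, 13.5 and 20.3 CPM in Ctrl 1 to 4 and at 0.676, 0.191, 0.365 and 0.214 CPM in Model 1 to 4, again without overlap (-5.75 ± 0.43, adjusted P = 3.58e-07). Prlr, the prolactin receptor, a gene higher in females, was at 4.37, 2.78, 11.3 and 11.3 CPM in Ctrl 1 to 4 and at 49.0, 58.3, 49.4 and 48.2 CPM in Model 1 to 4. All Model mice lay in a narrow band above all Ctrl mice, and the change was 2.77 ± 0.37 (adjusted P = 5.27e-05). The summed level of the list, of which Kap made up 86.5%, was at 50651, 64313, 52534 and 24546 CPM in Ctrl 1 to 4 and at 9365, 5024, 7889 and 5619.9 CPM in Model 1 to 4.

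Of 14 genes that respond to glucocorticoids 10 were higher, with a median of 0.95, and 5 were higher with library size alone. Zbtb16, a transcription factor induced by glucocorticoids, was at 1.01, 0.125, 0.318 and 1.02 CPM in Ctrl 1 to 4 and at 3.93, 6.38, 5.62 and 4.19 CPM in Model 1 to 4. The groups did not overlap (2.87 ± 0.44, adjusted P = 0.000105). Sult1a1, a sulfotransferase, rose by 1.89. Fkbp5, a chaperone of the glucocorticoid receptor, rose by 0.97, although Ctrl 1 lay above Model 2 and the call was lost with library size alone. In the renin-angiotensin list 6 of 11 genes were lower. Ace, the angiotensin-converting enzyme, was at 110.1, 111, 112 and 78.8 CPM in Ctrl 1 to 4 and at 16.4, 24.4, 23.9 and 31.2 CPM in Model 1 to 4. Model mice were far below Ctrl mice (-2.10 ± 0.21, adjusted P = 5.13e-06). Mme, the protease neprilysin, and Cltrn, the amino acid transport partner collectrin, fell by 1.43 and 1.48, and Ren1, which encodes renin, was at -0.66 and not called (called lower with library size alone). Of 18 genes of klotho, vitamin D, calcium and magnesium 3 were higher and 5 lower, with a median of 0.04. The largest rise was in Cyp27b1, which makes active vitamin D. It was at 2.76, 1.50, 5.56 and 0.956 CPM in Ctrl 1 to 4 and at 29.8, 17.0, 26.4 and 18.9 CPM in Model 1 to 4, a change of 3.06 ± 0.59 (adjusted P = 0.000813) with no overlap.

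Core clock genes oscillate over the day in kidney, with the Per genes in antiphase to Arntl. Here 9 of 19 clock genes were higher and 4 lower. Per1, a repressor of the clock that also responds to glucocorticoids, was at 8.29, 20.8, 11.5 and 18.6 CPM in Ctrl 1 to 4 and at 65.1, 91.9, 93.1 and 106 CPM in Model 1 to 4. All Model mice were well above all Ctrl mice (2.58 ± 0.35, adjusted P = 5.42e-05). Per2 and Ciart, other repressors of the clock, rose by 1.87 and 3.76. Nfil3, a transcription factor in antiphase to them, and Clock, an activator, fell by 1.55 and 0.73. Tef, an output transcription factor and the most abundant of the list, rose by 1.05 (not called with library size alone). Arntl, the partner of Clock, was at -1.64, a call lost without Ctrl 1, Ctrl 4, Model 1, Model 3 or Model 4 (-1.44, adjusted P = 0.0637 without Ctrl 4). The time of sampling within each group is not given, so genotype and hour of the day cannot be told apart for these genes.

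The E-box CACGTG, which clock activators bind, was searched on both strands in promoters of 300 bases from RefSeq (build GRCm38.p6), which held 16 of the 19 clock genes. It was found in 5 of them, Per1, Cry1, Tef, Ciart and Bhlhe41, of which 4 were called higher, against 8.09% of 27025 symbols with a promoter. Cry1 and Bhlhe41 are named here for the match, after their values were seen. A match is a description and not a site of binding. Promoters of Per1 (chr11:69098699-69098998 on the plus strand) and Ciart (chr3:95882179-95882478 on the minus strand) are shown with the motif in capitals, because these genes rose most among the clock genes with a match.
Per1: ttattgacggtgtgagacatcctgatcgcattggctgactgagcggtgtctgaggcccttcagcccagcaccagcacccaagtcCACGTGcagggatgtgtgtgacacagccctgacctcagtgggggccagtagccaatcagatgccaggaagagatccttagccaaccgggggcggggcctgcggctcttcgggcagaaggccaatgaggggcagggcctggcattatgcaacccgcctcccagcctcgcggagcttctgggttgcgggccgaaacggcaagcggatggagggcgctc
Ciart: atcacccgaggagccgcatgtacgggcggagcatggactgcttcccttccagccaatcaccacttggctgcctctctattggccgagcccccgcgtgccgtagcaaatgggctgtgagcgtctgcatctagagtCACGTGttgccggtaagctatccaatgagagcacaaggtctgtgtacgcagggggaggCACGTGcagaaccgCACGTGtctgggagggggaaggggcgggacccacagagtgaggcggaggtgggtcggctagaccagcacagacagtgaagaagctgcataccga

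Most genes of protein folding were lower both in the endoplasmic reticulum and in the cytosol. Of 25 genes of the unfolded protein response 15 were lower, with a median of -1.11. Hspa5, the chaperone BiP, was at 377, 254, 296 and 456 CPM in Ctrl 1 to 4 and at 111, 86.6, 102 and 97.0 CPM in Model 1 to 4. The lowest Ctrl mouse, Ctrl 2, was above every Model mouse, and the change was -1.80 ± 0.19 (adjusted P = 1.05e-05). Canx and Calr, which encode the lectin chaperones calnexin and calreticulin, and Pdia6, a disulfide isomerase, fell by 1.86, 1.28 and 1.83. Of 13 heat shock genes 12 were lower and 1 was higher, the latter call lost with library size alone, with no filter or without Ctrl 1, Ctrl 3, Ctrl 4, Model 2, Model 3 or Model 4. Hspa1a, an inducible cytosolic chaperone with the near-identical paralog Hspa1b, so that its counts are uncertain, was at 30.7, 44.9, 150.2 and 34.8 CPM in Ctrl 1 to 4 and at 5.99, 4.24, 3.20 and 3.68 CPM in Model 1 to 4. Ctrl 3 stood far above the other Ctrl mice, which were still above all Model mice. The change was -3.90 ± 0.56 (adjusted P = 8.86e-05), and -3.13 without Ctrl 3. Hsph1, a partner of these chaperones, and Hspa8, their constitutive relative with the highest level of the list, fell by 2.30 and 0.80.

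The endoplasmic reticulum stress element, CCAAT, 9 bases of any kind, then CCACG, was found on either strand in 7 of the 22 promoters matched to genes of the unfolded protein response, against 0.137% of 27025 symbols. The 7 were Hspa5, Hsp90b1, Calr, Canx, Pdia6, Dnajc3 and Creld2, and 6 of them were called lower. The heat shock element, GAA, TTC and GAA with 2 bases of any kind between them, was in 3 of 9 matched heat shock promoters, against 0.662% of symbols. These were Hsph1, Hspe1 and Hspd1, all called lower, and the last pair shares 1 promoter region. Hsp90b1, Dnajc3, Creld2, Hspe1 and Hspd1 are named for their matches, after their values were seen. As before, a match describes letters only. Promoters of Hspa5 (chr2:34771840-34772139 on the plus strand), Canx (chr11:50325624-50325923 on the minus strand) and Hsph1 (chr5:149636287-149636586 on the minus strand) are printed as examples that fell, with the element in capitals, in Hsph1 as its reverse complement.
Hspa5: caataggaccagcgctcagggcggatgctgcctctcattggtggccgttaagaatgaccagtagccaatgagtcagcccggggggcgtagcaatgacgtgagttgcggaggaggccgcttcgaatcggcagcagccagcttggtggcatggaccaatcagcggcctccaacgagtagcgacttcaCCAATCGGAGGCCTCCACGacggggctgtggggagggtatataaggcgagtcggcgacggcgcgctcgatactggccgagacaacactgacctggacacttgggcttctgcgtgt
Canx: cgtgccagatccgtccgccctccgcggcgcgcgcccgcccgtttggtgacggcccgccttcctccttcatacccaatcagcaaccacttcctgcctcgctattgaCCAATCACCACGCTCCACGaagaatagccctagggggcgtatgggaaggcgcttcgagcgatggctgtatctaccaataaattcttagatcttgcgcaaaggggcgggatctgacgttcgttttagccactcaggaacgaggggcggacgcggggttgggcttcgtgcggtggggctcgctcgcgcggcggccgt
Hsph1: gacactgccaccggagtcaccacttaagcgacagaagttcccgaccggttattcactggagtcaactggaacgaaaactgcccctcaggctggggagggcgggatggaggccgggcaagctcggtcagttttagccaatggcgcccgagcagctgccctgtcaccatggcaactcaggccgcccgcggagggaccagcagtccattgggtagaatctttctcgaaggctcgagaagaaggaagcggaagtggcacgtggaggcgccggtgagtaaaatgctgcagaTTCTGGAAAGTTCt

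Lysosomal genes were lower in 19 and higher in 2 of 39, with 30 lower with library size alone, and 20 of the list lie in the 10% with the highest mean FPKM. Both calls of higher genes were lost with library size alone, with no filter, without Ctrl 1, Ctrl 2, Ctrl 3, Model 1 or Model 4 and without Ctrl 2 and Model 1 together, and 1 was higher without Ctrl 4, Model 2 or Model 3. Lamp1, a membrane protein of lysosomes, was at 594, 564, 636 and 659 CPM in Ctrl 1 to 4 and at 275, 155, 179 and 145 CPM in Model 1 to 4. Model 1 was the highest Model mouse, and the groups did not overlap (-1.70 ± 0.19, adjusted P = 1.49e-05). Psap, the precursor of lipid-degrading cofactors and the most abundant of the list, and Ctsh, a cathepsin, fell by 1.33 and 1.66. In a list of 42 autophagy genes 19 were lower and 4 higher. Sqstm1, the cargo receptor p62, Atg4c, a protease, and Gabarap, which builds autophagosome membranes, fell by 1.08, 1.11 and 1.27, while Foxo3, a transcription factor, Optn, another cargo receptor, and Ulk1, the initiating kinase, rose by 1.30, 1.31 and 0.97.

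**Figure D5:**
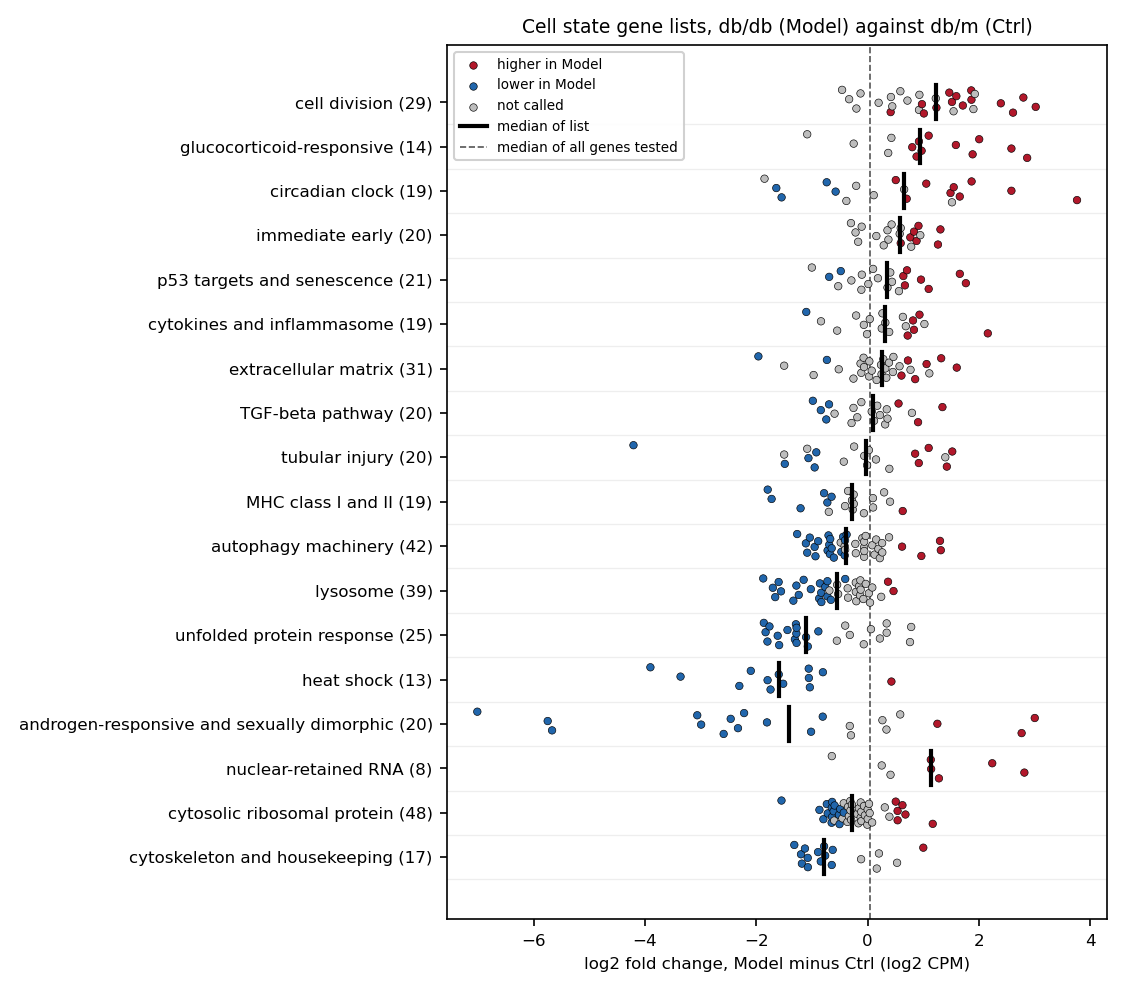
Each point is a gene of a cell state or quality list, with its log2 fold change on the x axis (Model minus Ctrl, 4 mice each) and the number of genes tested in brackets. Red points were called higher, blue points lower and grey points neither, and black bars are list medians, from -1.60 for heat shock to 1.22 for cell division.

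Of 29 cell division genes 14 were higher, with a median of 1.22. Mki67, a marker of cycling cells, was at 3.53, 3.68, 2.55 and 1.82 CPM in Ctrl 1 to 4 and at 22.1, 24.2, 16.3 and 19.4 CPM in Model 1 to 4. The lowest Model mouse was well above the highest Ctrl mouse, and the change was 2.80 ± 0.27 (adjusted P = 3.93e-06). Top2a, a topoisomerase of dividing cells, and Plk1, a mitotic kinase, rose by 2.61 and 3.02 from low levels. Ccnd1, a cyclin of growth phase that is the most abundant gene of the list, was at 0.44 and not called (called higher with DESeq2, with upper-quartile scaling, with at least 10 counts in every sample or without Ctrl 4). The higher count was 7 with library size alone and 9 without Ctrl 1, Model 1 or Model 4. Among 21 targets of p53 and genes of senescence 7 were higher and 2 lower, and 2 were higher and 5 lower with library size alone. Without Ctrl 1, Ctrl 4, Model 2, Model 3 or Model 4, with upper-quartile scaling or with at least 10 counts in every sample 1 was lower. Gadd45b, a stress-induced gene, was at 4.76, 4.59, 4.68 and 5.35 CPM in Ctrl 1 to 4 and at 18.9, 14.7, 13.0 and 15.0 CPM in Model 1 to 4, without overlap (1.66 ± 0.29, adjusted P = 0.000353). Cdkn1a, which encodes the cell cycle inhibitor p21, was called higher (1.10), a call lost with library size alone, without Ctrl 2 and Model 1 together, and without Ctrl 2, Ctrl 3 or Model 4 (0.79, adjusted P = 0.0922 without Ctrl 3). Of 20 immediate early genes 7 were higher, Ier3 among them (1.26), and 1 was higher with library size alone. Fos, the gene that heads the list, was at 0.59 and not called.

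Injury genes of the tubule showed no common direction, with 5 higher and 5 lower of 20, and 2 higher with library size alone. Havcr1, the injury marker KIM-1, was at 2.69, 3.49, 2.62 and 3.76 CPM in Ctrl 1 to 4 and at 0.0644, 0.286, 0 and 0.0855 CPM in Model 1 to 4. Its level was low in Ctrl and close to 0 in Model (-4.21 ± 0.70, adjusted P = 8.25e-05). With DESeq2 the change was -4.91, so the size of this fall depended on the fit. Anxa3, an annexin, and Ccl2, a chemokine for monocytes, rose by 1.52 and 1.42, and Spp1, the matrix protein osteopontin, was at 0.39 and not called. In the extracellular matrix 6 of 31 genes were higher and 2 lower. Lama5, a laminin chain of the glomerular basement membrane, was at 64.3, 69.0, 63.5 and 70.3 CPM in Ctrl 1 to 4 and at 127, 197, 155 and 188 CPM in Model 1 to 4. The groups did not overlap (1.32 ± 0.16, adjusted P = 2.45e-05). Mmp14, a membrane-bound metalloprotease, rose by 1.60, and Timp3, an inhibitor of such proteases, fell by 1.96. Col4a3, a collagen chain of the same membrane, fell by 0.73, and Col1a1, a fibrillar collagen, was at -0.52 and not called (called lower with library size alone or with the 8 mice alone). Higher matrix genes numbered 3 without Ctrl 1 or Ctrl 4 and 2 with library size alone, and lower ones 4 with DESeq2 or the 8 mice alone and 6 with library size alone.

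Macrophage markers split, 3 higher and 5 lower of 16, and 1 higher with library size alone. Cd74, the invariant chain of antigen presentation, was at 174, 102, 143 and 112 CPM in Ctrl 1 to 4 and at 68.7, 56.0, 53.8 and 51.6 CPM in Model 1 to 4. All Model mice were below all Ctrl mice (-1.20 ± 0.25, adjusted P = 0.00136). C1qa and C1qc, complement chains of resident macrophages, fell by 1.08 and 1.60. The class II genes H2-Aa and H2-Eb1 were also lower (-1.72 and -1.79). Gpnmb, a glycoprotein of lipid-laden macrophages, was at 5.16, 6.55, 4.11 and 3.55 CPM in Ctrl 1 to 4 and at 12.9, 15.9, 23.6 and 25.5 CPM in Model 1 to 4. Here the order was reversed and the groups again separate (1.99 ± 0.38, adjusted P = 0.000743). Adgre1, which encodes F4/80, was at 0.02 and not called. The summed level of the 16 macrophage genes, with Lyz2 as the most abundant, was at 421, 271, 391 and 316 CPM in Ctrl 1 to 4 and at 281, 291, 330.1 and 388 CPM in Model 1 to 4, and the groups overlapped. Of 19 genes of MHC class I and II 6 were lower and 1 was higher, and 10 were lower with library size alone. The call of the higher gene was lost with library size alone and without Ctrl 4 or Model 2. Tnf, an inflammatory cytokine, was at 0.889, 2.00, 0.784 and 1.00 CPM in Ctrl 1 to 4 and at 6.34, 3.62, 5.94 and 5.69 CPM in Model 1 to 4, a low level without overlap (2.16 ± 0.44, adjusted P = 0.00103). Of 19 cytokine genes 5 were higher and 1 was lower, and with library size alone 1 and 4. Higher ones numbered 8 with upper-quartile scaling, 2 without Ctrl 4 or Model 2, and 3 without Ctrl 1, Ctrl 2, Ctrl 3 or Model 3, without Ctrl 2 and Model 1 together or with the replicate number as a block. Among lymphocyte markers, 5 of 11 T and NK cell genes were not tested for want of counts.

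Some lists speak to RNA quality and general expression. Of 8 nuclear-retained RNAs tested 5 were higher. The summed level of all 10 listed, with Neat1 as the most abundant gene, was at 489, 520.3, 417 and 398 CPM in Ctrl 1 to 4 and at 698, 1271, 946 and 854 CPM in Model 1 to 4. Malat1, a nuclear long noncoding RNA, was at 151, 136, 107 and 104 CPM in Ctrl 1 to 4 and at 179.8, 406, 264 and 244 CPM in Model 1 to 4, without overlap (1.13 ± 0.22, adjusted P = 0.00091), and Kcnq1ot1, an antisense transcript whose counts are uncertain, rose by 2.81. Cytoskeletal and housekeeping genes were lower in 12 and higher in 1 of 17, including Eef1a1, an elongation factor, at -1.08, while Actb, which encodes beta-actin, was at 0.16 and not called. Cytosolic ribosomal proteins were lower in 15 and higher in 6 of 48, and mitochondrial ones lower in 24 and higher in 1 of 48. Of these, 46 cytosolic and 19 mitochondrial ones lie in the 10% with the highest mean FPKM. In that 10%, 44.1% of all nuclear genes were lower. With library size alone 28 cytosolic and 38 mitochondrial ones were lower and 1 cytosolic one higher, and the call of the higher mitochondrial one was lost. Higher mitochondrial ones numbered 2 with no filter or the 8 mice alone and 3 without Ctrl 2. Lower cytosolic ones numbered 24 without Model 1, and higher ones 2 without Ctrl 3 or Ctrl 4 and 3 without Ctrl 1 or Model 3. The part of these shifts in the results above was not tested. Of 6 adrenal genes 2 had counts enough for the test, and both rose, Star, which carries cholesterol into mitochondria (1.29), and Hsd3b1, a steroid dehydrogenase (4.09). Hsd3b1 was at 0.720, 0.936, 0.686 and 0.250 CPM in Ctrl 1 to 4 and at 8.66, 8.43, 10.3 and 20.7 CPM in Model 1 to 4, and the groups did not overlap. The summed level of the list, with Hsd3b1 as the most abundant, was at 2.62, 3.00, 1.96 and 2.09 CPM in Ctrl 1 to 4 and at 11.7, 14.5, 14.7 and 24.3 CPM in Model 1 to 4. Of the adrenal genes not tested, Cyp11b2 was at 0 in all 8 mice, and Cyp21a1 had no more than 3 counts in any of them. Cyp11a1 and Cyp11b1, also not tested, exceeded 3 counts in at least 1 mouse.

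The mutated gene itself was not called. Lepr, the leptin receptor, was at 10.7, 4.84, 9.97 and 11.7 CPM in Ctrl 1 to 4 and at 8.27, 6.62, 2.79 and 7.78 CPM in Model 1 to 4. The groups overlapped (-0.54 ± 0.39). The counts cover all Lepr transcripts together and do not separate the long form that the db mutation alters. Among the 10 largest rises in mean FPKM outside the mitochondrial genome were Gm28661, Gm10925, Gm28437, Gm29216, Gm28438 and Gm28439, nuclear copies of mitochondrial sequence, and Rps18-ps5, a ribosomal pseudogene, whose counts are uncertain because reads of the parent genes can match them. Others were Gpx3, Pck1 and Rpl36, of the cytosolic ribosome (not called with library size alone). Large falls beside Kap included Prdx5, a peroxidase (-1.12), Cox6a1, of cytochrome c oxidase (-1.19), and Napsa, a protease of the proximal tubule (-0.89).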

How the data were processed

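RNA was sequenced from the kidney of 12 mice, 4 each in 3 groups, and 8 were compared here. The deposited file gives 1 raw count per gene and mouse, which the authors made with Trimmomatic 0.39, HISAT2 2.2.1 and featureCounts 2.0.1 on build GRCm39. The annotation and the strand setting are not stated. Groups were taken from the sample titles. The authors' comparison and pathway tables, with their 12 per-sample columns, were not used here.

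Counts of the 12 mice, from 24415658 to 33276634 a library in the 8 compared, were filtered with filterByExpr, scaled by TMM and fitted by group with edgeR 4.0.16 quasi-likelihood in R 4.3.3, with a prior count of 2 for the logs. Model was tested against Ctrl over 17431 of 57490 listed genes and adjusted after Benjamini-Hochberg. The calling steps were tested on simulated data. FPKM used the deposited gene lengths. Error values are standard errors of the fit. Pairs of mice of 1 group differed with a chi-square per degree of freedom of 13.9 to 109, where counting noise alone gives about 1, so precision is that of the mice and not of depth.

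Members of 77 gene lists come from textbook roles, and lists and members were chosen with earlier results of these data known. Named genes were taken from the first and the most abundant (by FPKM) of each list described, its up to 3 largest called rises and falls with a mean count of at least 50, the 10 largest called rises and falls in FPKM off the mitochondrial genome, Lepr and the genes of the supplement's primer list. Alternatives were DESeq2 1.42.0, upper-quartile and library size scaling, removal of mitochondrial transcripts, 2 other filters, the 8 mice alone, a block for the replicate number, leaving out each mouse, and Ctrl 2 and Model 1 left out together. For the numbers of genes called alone, edgeR glmTreat at a fold of 1.2 and the limits of the study's methods (fold change over 1.2, unadjusted P under 0.05) were also tried. Tables used Python 3.11.15, pandas 2.3.3, numpy 2.4.6 and scipy 1.17.1, and figures matplotlib 3.10.9.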

Additional observations from a re-analysis of the deposited data

Results flagged for a closer look

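In 440 groups of 4 values, the value of 1 mouse was called far from the others when its gap to the nearest took up more of the range than Dixon's test allows at the 95% level. Chance does this in about 1 in 20 groups, and it was the case 26 times. No explanation is weighed here. Ctrl 2 had 29632718 counts, below the 32677732 to 33276634 of the other Ctrl mice, and 22.7% of them on the mitochondrial genome, above 18.4% to 18.6%. Ctrl 2 stood above the other Ctrl mice in Nr1h4 (133 CPM against 48.2 to 58.0). Ctrl 2 lay below the other Ctrl mice in Nes (9.52 CPM against 10.6 to 10.8) and Pecam1 (23.2 CPM against 37.2 to 39.1). Ctrl 4 stood above the other Ctrl mice in Psap (1429.6 CPM against 1042 to 1099) and Wnk4 (89.9 CPM against 64.0 to 65.9). Ctrl 4 lay below the other Ctrl mice in Ace (78.8 CPM against 110.1 to 112), Acsm2 (1564 CPM against 2741 to 2926) and Stat2 (10.1 CPM against 13.2 to 13.7). Ctrl 1 stood above the other Ctrl mice in Ccl2 (4.25 CPM against 2.43 to 2.64). Ctrl 1 lay below the other Ctrl mice in Fos (1.13 CPM against 3.03 to 3.35). Ctrl 3 stood above the other Ctrl mice in Hspa1a (150.2 CPM against 30.7 to 44.9), Hspa1b (270.1 CPM against 68.8 to 82.8) and Mdh1 (985 CPM against 818 to 843). Ctrl 3 lay below the other Ctrl mice in Ebf1 (3.77 CPM against 5.07 to 5.26). Model 1 stood above the other Model mice in Fxyd2 (3129.8 CPM against 2382 to 2477), Gsta2 (60.04 CPM against 27.6 to 32.2), Kcnj10 (29.8 CPM against 13.7 to 15.7), Mdh1 (468 CPM against 296 to 318) and Suclg1 (116 CPM against 61.1 to 69.9). Model 2 stood above the other Model mice in Prlr (58.3 CPM against 48.2 to 49.4). Model 2 lay below the other Model mice in Oxct1 (352 CPM against 440.4 to 456). Model 4 stood above the other Model mice in Hsd3b1 (20.7 CPM against 8.43 to 10.3) and Slc9a3 (110.0 CPM against 83.4 to 85.7). Model 4 lay below the other Model mice in Timp3 (36.7 CPM against 73.5 to 75.6).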

How the results depend on the processing

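With TMM 3412 genes were higher and 3219 lower. Scaling by library size alone turned this into 1547 higher and 5667 lower, and with it the median of all genes moved to -0.39. Upper-quartile scaling gave 4025 and 2622, and DESeq2 3741 and 3512. Fitted with the replicate number as a block, 3212 were higher and 3077 lower. Log2 changes of Model mice from the mean of Model and of Ctrl mice from theirs, paired by equal number, correlated at -0.01, 0.01, -0.04 and 0.05, so the numbers were not used as pairs. With 1 mouse left out, higher genes ranged from 2507 to 3216 and lower genes from 2596 to 3711, and without Ctrl 2 and Model 1 together they were 3043 and 3447. The difference in mitochondrial share, 32.6 points, ranged from 30.4 to 36.3 with 1 mouse left out (exact P = 0.0571) and was 37.4 without Ctrl 2 and Model 1 together (exact P = 0.1). These P values are the smallest that so few mice can give.

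Of 77 lists 56 had a median below that of all genes, and 49 to 60 did under the alternatives. No called gene whose change is given in the text took the opposite direction under another scaling, filter, fit or choice of mice. The list medians that crossed the median of all genes lay within 0.11 of it with TMM, except that of the neutrophil list. The latter crossed with at least 10 counts in every sample. The T and NK cell list had no value with at least 10 counts in every sample, and the mitochondrial messenger RNA list none with those transcripts removed. Each group is 4 males of 1 strain at 1 age, the hour of death and the depth of the cortex sample are not given, no protein or cell count was analysed here, and genes at a few counts have wide errors.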

Other observations

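Of 17 genes that build and transcribe mitochondria 3 were higher and 4 lower, shares close to the 19.6% and 18.5% of all genes, and 1 and 7 with library size alone. Tfam, a factor that packs and transcribes mitochondrial DNA, was at 34.7, 36.5, 39.6 and 31.7 CPM in Ctrl 1 to 4 and at 28.5, 23.4, 20.0 and 25.3 CPM in Model 1 to 4. Its groups were close but separate (-0.55 ± 0.14, adjusted P = 0.00511). Tefm, the elongation factor of mitochondrial transcription, fell by 1.53. Ppargc1b, a coactivator of mitochondrial genes, was at 2.23, 2.90, 2.82 and 2.03 CPM in Ctrl 1 to 4 and at 5.73, 9.43, 9.09 and 8.68 CPM in Model 1 to 4, with every Model mouse above every Ctrl mouse (1.70 ± 0.26, adjusted P = 0.000129). Esrra, a nuclear receptor of the same programme, was at 0.06 and not called. Among 20 nuclear receptors and transcription factors of the tubule 2 were higher and 5 lower, and 1 and 10 with library size alone. Nr1h4, the bile acid receptor FXR, was at 48.2, 133, 58.0 and 50.3 CPM in Ctrl 1 to 4 and at 146, 180.4, 201 and 195 CPM in Model 1 to 4. Ctrl 2 was high within its group and still below Model (1.32 ± 0.30, adjusted P = 0.00273). Hnf4a, a factor of proximal tubule identity, was at 0.06 and not called. Nr3c1, which encodes the glucocorticoid receptor, fell by 0.71. In sodium, phosphate and bicarbonate transport of the proximal tubule 6 of 18 genes were lower and 1 was higher. The latter call was lost with library size alone and without Ctrl 1, Ctrl 3, Model 2, Model 3 or Model 4, and 2 were higher with upper-quartile scaling, the 8 mice alone or the replicate number as a block. Pdzk1, a scaffold of the brush border, was at 152, 131, 169.6 and 132 CPM in Ctrl 1 to 4 and at 35.2, 45.8, 39.3 and 39.5 CPM in Model 1 to 4, far apart between the groups (-1.87 ± 0.20, adjusted P = 1.06e-05). Car4, a membrane carbonic anhydrase, fell by 1.62, and Slc9a3, the sodium and hydrogen exchanger NHE3, was at 0.26 and not called. Of 19 amino acid transporters 6 were lower, such as Slc3a1, of cystine uptake, at -1.27.

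Genes that respond to low oxygen were lower in 4 and higher in 1 of 15, and 2 were higher with DESeq2, with upper-quartile scaling, with no filter, with the 8 mice alone, with the replicate number as a block or without Model 1. Bnip3, a mitophagy receptor, was at 42.4, 41.3, 39.3 and 43.7 CPM in Ctrl 1 to 4 and at 20.2, 20.4, 21.2 and 17.6 CPM in Model 1 to 4. Mice were even within each group and the groups lay apart (-1.07 ± 0.12, adjusted P = 1.77e-05). P4ha1, of collagen hydroxylation, fell by 1.02, and Car9, a carbonic anhydrase, rose by 1.11 (not called with library size alone). In the TGF-beta pathway 3 of 20 genes were higher and 4 lower, and 1 and 7 with library size alone. Without Model 4, 2 were lower. Tgfbr2, a receptor of the ligand, was at 64.6, 57.2, 61.4 and 57.2 CPM in Ctrl 1 to 4 and at 35.6, 24.8, 28.5 and 32.5 CPM in Model 1 to 4, without overlap (-0.98 ± 0.24, adjusted P = 0.00456), and Id1, a target of the related BMP ligands, rose by 1.34. Among 20 genes that write, erase or read N6-methyladenosine in RNA 8 were lower and 4 higher, with 13 lower and the calls of higher genes lost with library size alone, and 5 lower without Model 4. Mettl3, the catalytic writer, was at 7.28, 4.90, 6.91 and 7.95 CPM in Ctrl 1 to 4 and at 3.83, 3.62, 3.56 and 3.16 CPM in Model 1 to 4. No Model mouse reached the lowest Ctrl mouse, and the change of -0.92 ± 0.29 (adjusted P = 0.019) was not called without Model 4 (-0.87, adjusted P = 0.0529). Fto, an eraser, was at 40.1, 44.2, 38.3 and 41.9 CPM in Ctrl 1 to 4 and at 21.6, 19.6, 19.1 and 19.5 CPM in Model 1 to 4. Levels were tight in both groups, with all Model mice below all Ctrl mice (-1.04 ± 0.14, adjusted P = 4.65e-05). Igf2bp1 and Igf2bp2, related readers, went opposite ways (-1.58 and 1.06, the latter not called with library size alone). Of 22 interferon-stimulated genes 2 were lower and 1 was higher, and 9 were lower with library size alone and 1 with at least 10 counts in every sample. Stat2, a signal transducer of interferon, was at 13.7, 13.2, 13.6 and 10.1 CPM in Ctrl 1 to 4 and at 20.0, 36.0, 32.4 and 39.3 CPM in Model 1 to 4. All Model mice were above all Ctrl mice (1.33 ± 0.24, adjusted P = 0.000487). Red blood cell genes were lower in 3 and higher in 1 of 7, the latter call lost with library size alone, without Ctrl 2 and Model 1 together and without each single mouse but Ctrl 4, with a summed level at 494, 329, 409.9 and 741 CPM in Ctrl 1 to 4 and at 509, 467, 328 and 304 CPM in Model 1 to 4 and Hba-a1 as the most abundant, and their part in the results was not tested.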
